A study of Mus musculus with 14 samples.

Results

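Day 5 (D5) of a differentiation of mouse embryonic stem cells toward neural cells was compared between 4 libraries with induced GLI1 and 4 control libraries, 8 of the 14 libraries of the series. All 15108 genes that the authors' deposited table lists for D5 were taken, with no selection on their values. Every library came from the GLI1-FTA cell line in the A2Lox.cre strain, and the labels name the cells at D5 mESC-derived neural progenitor cells. A2Lox.cre cells are mouse embryonic stem cells with a doxycycline-responsive landing site for a transgene beside Hprt on the X chromosome. The induced group (GLI1 OE) received doxycycline at 500 ng/ml for 48 h, from day 3 to day 5, and was harvested on day 5. The control group carried the same transgene and stayed untreated, so the drug and GLI1 changed together and cannot be told apart. The labels give 1 line, do not say whether it is 1 clone, and do not say whether replicates were separate cultures, so the p-values measure only the spread between these samples. Polyadenylated RNA was measured, and the deposited values compare groups, so the depth per library is unknown and no value per library can be given.

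GLI1 is a zinc-finger transcription factor at the end of the Hedgehog pathway. Hedgehog ligands relieve the block that Patched places on Smoothened, and GLI proteins then switch on target genes. Unlike its relatives GLI2 and GLI3, GLI1 is known as an activator without a repressor form, and in the neural tube Hedgehog signalling specifies ventral cell types.

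Defining genes of neural progenitors were present in these cultures. The average log2 CPM (read counts scaled to the library total) over the D5 libraries in the authors' deposited table was 9.08 for the intermediate filament gene Nes, 7.38 for Sox2, 7.14 for Pax6 and 6.72 for Sox1. Genes of other lineages were present as well, with 8.36 for Cubn, an endocytic receptor of visceral endoderm, and 6.63 for the epithelial keratin Krt18 in the authors' deposited table. In bulk RNA, fewer cells of a type and less RNA per cell cannot be told apart.

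Induction raised Gli1 (Entrez 14632) from 6.16 to 171 CPM. Both levels were derived here from the average and the fold change in the authors' deposited table, and all group levels below were obtained in that way. The log2 fold change of Gli1 was 4.79 in the authors' deposited table, where its adjusted p was 1.12e-81. Its implied standard error (SE) was 0.25. The implied SE is the log2 fold change over the z that matches its p-value, computed here. Hprt rose from a derived 5.90 to 236 CPM (log2 fold change 5.32 in the authors' deposited table). Its nearest tested neighbours on the X chromosome in the RefSeq gene order were Phf6 at 0.17 and C430049B03Rik at 0.15 in the authors' deposited table. Neither passed, nor did Plac1, the gene after C430049B03Rik, at -0.61 there.

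A gene is called higher or lower where its adjusted p in the authors' deposited table is under 0.05. By this rule 671 of 15108 genes changed, or 4.44% of those tested, with 354 higher (2.34%) and 317 lower (2.10%). The response reached far past the Hedgehog and ventral neural tube genes. Outside those 48 genes, 643 of 15060 genes were called in the authors' deposited table (4.27%), 330 higher and 313 lower. The size of the change depended on direction and on expression. The median change was 2.04-fold among the higher genes and 1.59-fold among the lower ones in the authors' deposited table. Among abundant genes this order turned, with a median log2 fold change of 0.46 for higher and -0.50 for lower genes at an average log2 CPM from 6 to 8 in the authors' deposited table. Higher genes were also scarcer, with a median average log2 CPM of 3.40 against 3.98. At least a 2-fold change was seen in 182 higher genes (1.20% of all genes) and 68 lower genes (0.450%) in the authors' deposited table. At least a 4-fold change was seen in 46 higher and 4 lower genes there.

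Genes that were not called held 97.3% of the derived CPM in control and in induced cells. Summed derived CPM rose from 8488 to 14276 over the higher genes and fell from 18117 to 12341 over the lower genes. The higher genes thus went from 0.847% to 1.43% of all derived CPM and the lower genes from 1.81% to 1.23%. CPM is scaled to a fixed total, so gains in some genes are offset by losses in others and the near match of the sums is not a result. Nor is CPM corrected for transcript length, so long transcripts weigh more in these sums. Beyond pathway genes, the gains were led by Hprt, beside the landing site of the transgene, and by Col18a1. The part of that site in the rise of Hprt was not tested. Col18a1, a basement membrane collagen, went from a derived 149 to 352 CPM. Vcan, a large chondroitin sulfate proteoglycan, went from a derived 184 to 310 CPM, and Chd3, a nucleosome remodeller of the NuRD complex, from 102 to 218 CPM. The losses were led by Mest, an imprinted hydrolase-like gene, with a derived 2045 CPM in control and 1479 in induced cells. Sparc, a collagen-binding matrix protein, followed with a fall from a derived 1112 to 702 CPM, and Slc2a3, a neuronal-type glucose transporter, with a fall from 891 to 579 CPM.

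**Figure D1:**
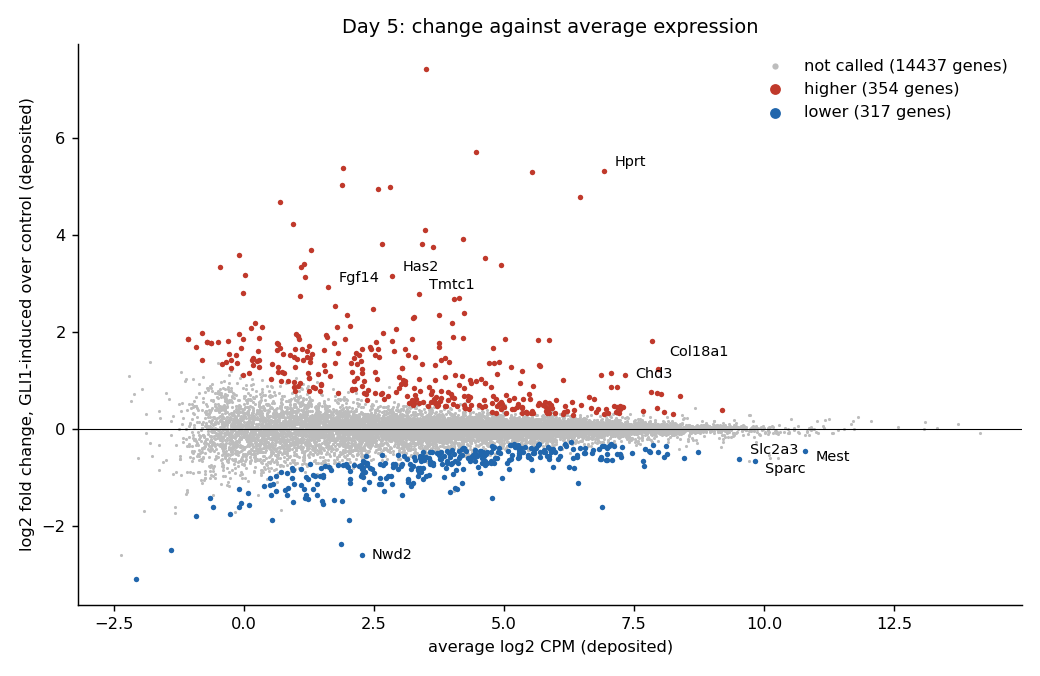
Each point is a gene, with its average log2 CPM on the x axis and its log2 fold change at D5, induced over control, on the y axis, both from the authors' deposited table. The 354 higher genes reach larger changes than the 317 lower genes, and the spread of the genes that were not called narrows as average expression rises.

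The share of genes called depended on average expression. In the authors' deposited table, 4.42% of the 769 genes with an average log2 CPM under 0 were called, 5.94% of the 2224 genes from 0 to 2, and 6.17% of the 3340 genes from 2 to 4. The share then fell to 3.94% of 5132 genes from 4 to 6, 2.81% of 2987 genes from 6 to 8 and 1.98% of 656 genes of 8 and over in the authors' deposited table. Higher genes outnumbered lower ones among scarce transcripts and not among abundant ones. Under 0 there were 25 higher and 9 lower genes in the authors' deposited table, from 4 to 6 there were 99 and 103, and at 8 and over 5 and 8.

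The change that a call required also moved with expression. The median implied SE was 0.45 for genes under 0 and 0.10 for those from 6 to 8. The least change that was called was 2.17-fold under 0, 1.65-fold from 0 to 2, 1.36-fold from 2 to 4 and 1.22-fold from 6 to 8 in the authors' deposited table. The spread of z, taken from the median size of z and set against that of a standard normal, also differed. It was 1.14 times that of a normal under 0, 1.22 times from 0 to 2 and 0.548 times at 8 and over. When z was divided by this spread in bins of about 500 genes, which was chosen after the data had been seen, 773 genes were called (5.12%). The order of the classes then turned, with 2.86% called under 0 and 6.86% at 8 and over. Of the 671 genes in the authors' deposited table, 597 were also called after rescaling, and each of the 74 that were lost had an average log2 CPM under 4. Of the genes named below, Fgfr4, Col3a1, Col5a2, Col9a2, Epha3, Epha5, Cdh7, Egln3, Dio3 and Asb4 were among the 74, with rescaled adjusted p from 0.0514 for Asb4 to 0.242 for Cdh7. How the authors' test modelled the spread at each level was not tested.

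**Figure D2:**
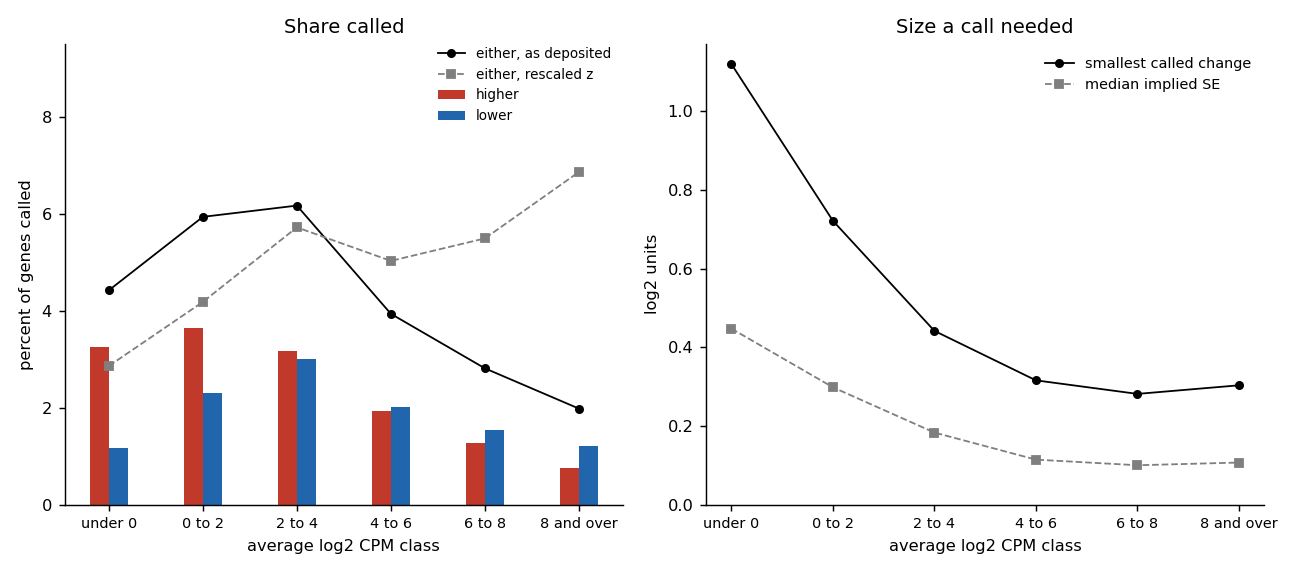
Left, the percent of genes called in each class of average log2 CPM, as bars for higher and lower genes and as lines for both together, with the deposited p-values (solid) and with rescaled z (dashed). Right, the least change called and the median implied SE, both in log2 units. The solid line falls from 6.17% to 1.98% over the upper classes while the dashed line ends at 6.86%.

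Examples from both ends of the range show which genes moved. Among genes under 0, Pgf, a placental growth factor of the VEGF family, stood at 3.59 and Slc32a1, the vesicular transporter of inhibitory neurons, at -2.50 on the log2 scale in the authors' deposited table. Slc32a1 rests on a derived 0.641 CPM in control cells and 0.114 in induced cells. At 8 and over, Mest, Sparc, Slc2a3 and Plod2 fell, with Sparc at -0.66 and Plod2, a collagen lysyl hydroxylase, at -0.60 in the authors' deposited table.

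Calls were frequent among cell type markers and genes of the cell surface, the matrix, neurons and signalling, and rare among genes of the cell's basic machinery. The lists and their members were chosen with earlier results of these data known, so the shares may depend in part on that choice. Of 161 cell type markers, 9 were higher and 31 lower by the authors' deposited table (24.8%). The authors' deposited table called 46 higher and 46 lower of 508 genes in the surface and matrix lists (18.1%) and 17 higher and 35 lower of 314 in the neuronal lists (16.6%). In the signalling lists 33 were higher and 40 lower of 501 (14.6%), and in the transcription factor lists 26 higher and 37 lower of 695 (9.06%), in the authors' deposited table. It called 13 higher and 14 lower of 633 metabolism genes (4.27%), and 5 higher and 3 lower of 666 core machinery genes (1.20%). Cell state genes had 11 higher and 14 lower of 311 (8.04%). Of 11562 genes in none of the lists, 348 were called (3.01%) in the authors' deposited table. Average expression differed between these classes, with a median average log2 CPM of 3.54 for surface and matrix genes and 6.29 for core machinery genes. Within the class from 6 to 8, 10 higher and 8 lower of 88 surface and matrix genes (20.5%) and 1 higher and 1 lower of 234 core machinery genes (0.855%) were called in the authors' deposited table.

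**Figure D3:**
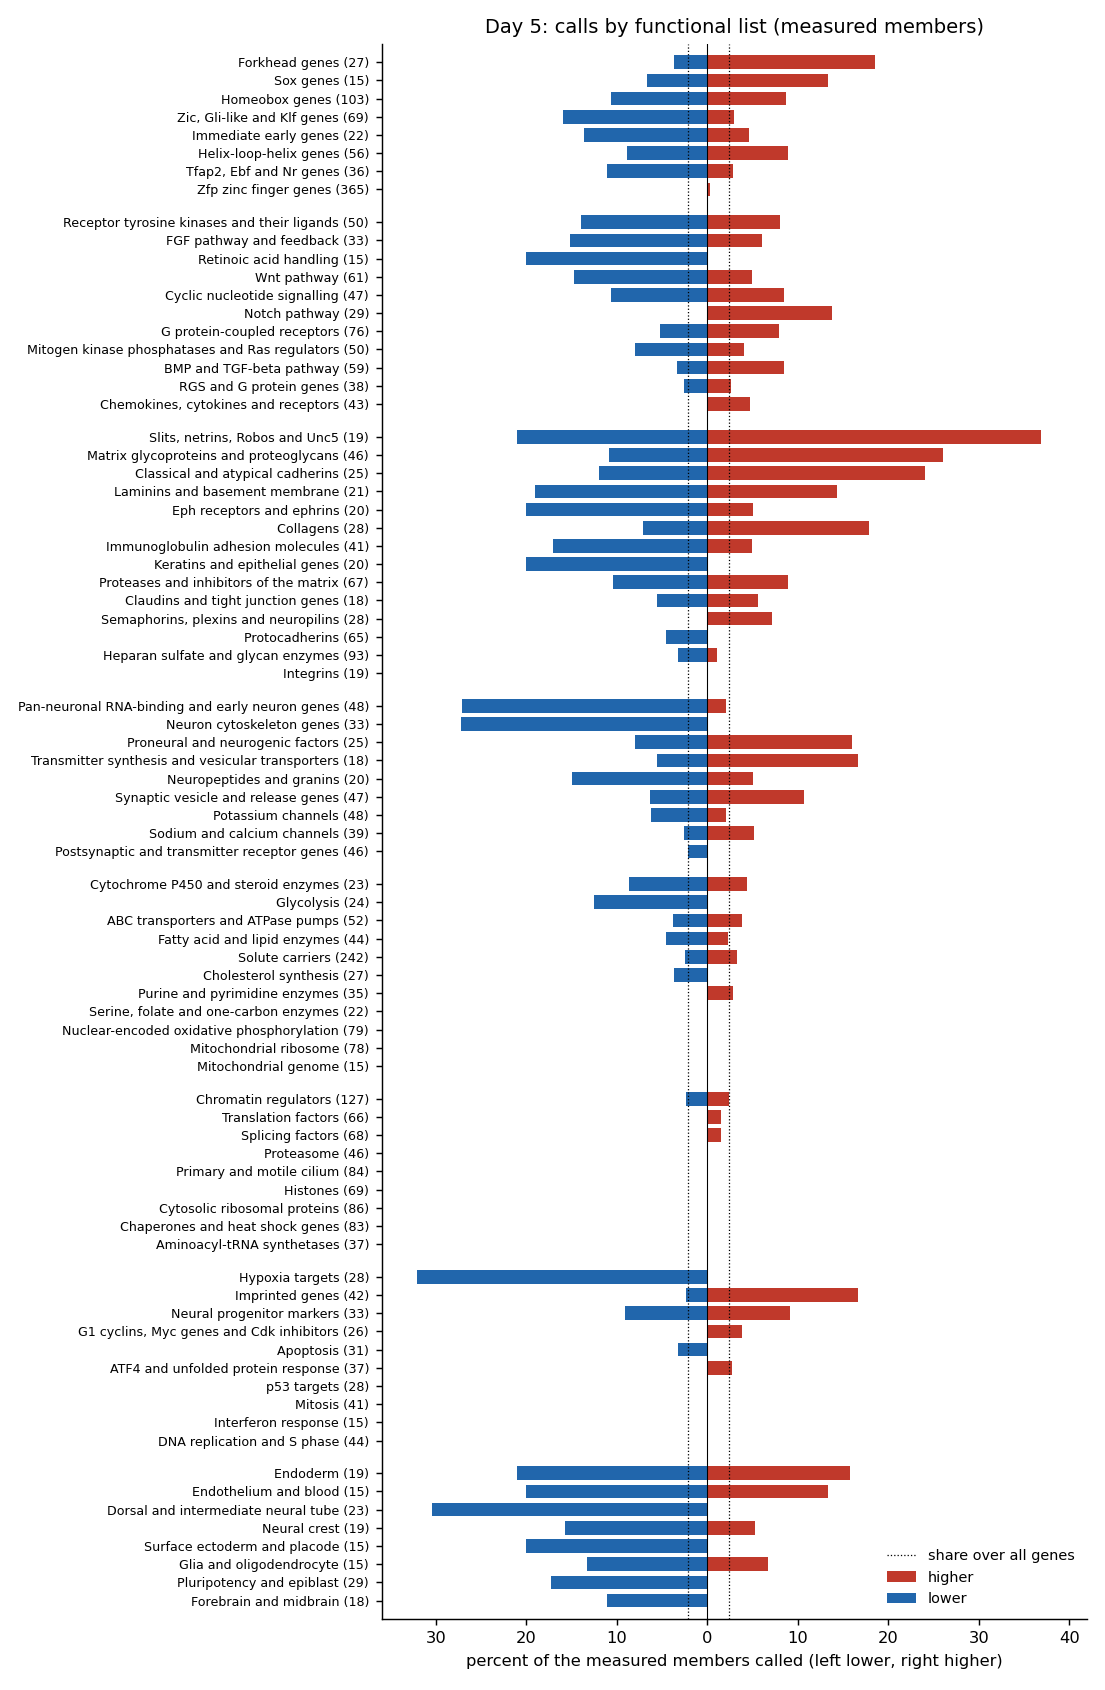
Bars give the percent of the measured members of each functional list that were called higher (right) or lower (left) at D5, with the number of measured members in brackets, for lists with at least 15 members. Blocks from the top are transcription factors, signalling, surface and matrix, neuronal, metabolism, core machinery, cell state and cell type markers. Dotted lines mark the 2.34% and 2.10% over all genes, and lists such as histones and mitosis have no bar.

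Transcription factors were called in both directions. Of 27 measured forkhead genes 5 were higher and 1 lower by the authors' deposited table, and the lower one was Foxq1, an epithelial forkhead factor, at -0.72. All 5 higher ones stand in the Hedgehog and ventral lists, so outside these the family had 0 higher genes. The homeobox list of 103 genes had 9 higher and 11 lower genes in the authors' deposited table and a median of -0.16, against 0.0015 over all genes. Outside the Hedgehog and ventral lists, 5 homeobox genes were higher and 11 lower. Six2, a factor of nephron progenitors and of head mesenchyme, rose by 2.54 in the authors' deposited table, from a derived 0.987 to 5.73 CPM. Among the lower homeobox genes were Onecut3 at -1.04 and Onecut2 at -0.50 in the authors' deposited table, a pair of cut-homeodomain factors of young neurons.

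The list of Zic, Klf, Egr and other C2H2 regulators had 2 higher and 11 lower genes of 69 in the authors' deposited table. Plagl1, an imprinted zinc-finger regulator of growth genes, went from a derived 21.9 to 78.2 CPM (log2 fold change 1.84, adjusted p = 1.89e-37 in the authors' deposited table). Egr2, an immediate early factor that also patterns the hindbrain, fell by 1.18 in the authors' deposited table, and Klf8 by 0.71. Nuclear receptors and Tfap2 and Ebf factors had 1 higher and 4 lower genes of 36 in the authors' deposited table. The orphan receptor Esrrg stood at -1.25 and the neuronal factor Ebf3 at -0.57, while the orphan receptor Nr4a3 stood at 1.14 in the authors' deposited table. The large family of genes named Zfp had 1 call among 365 in the authors' deposited table, Zfp277 at 0.43, and 13 of them had an unadjusted p under 0.05.

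Among signalling genes, members of the Wnt, FGF and receptor tyrosine kinase lists were called more often lower than higher. Of 61 measured Wnt pathway genes, 3 were higher and 9 lower by the authors' deposited table, and the median was 0.025. The ligands moved apart. Wnt5b rose from a derived 2.33 to 6.39 CPM (log2 fold change 1.45 in the authors' deposited table), while Wnt5a stood at -0.98, Wnt11 at -1.29 and Wnt7b at -0.48. The secreted inhibitors parted as well. Frzb and Sfrp5 stood at -0.55 and -1.76 and Sfrp1, from a derived 508 to 662 CPM, at 0.38 in the authors' deposited table. Porcn, the acyltransferase that Wnt ligands need for secretion, stood at -0.67 in the authors' deposited table.

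In the FGF list 2 of 33 genes were higher and 5 lower by the authors' deposited table. Fgf14, an intracellular FGF that binds sodium channels, rose by 2.93 in the authors' deposited table, from a derived 0.71 to 5.42 CPM (adjusted p = 8.86e-23). The receptor Fgfr4 stood at -1.01 and its co-receptor Klb at -0.81, and Dusp4, a phosphatase of MAP kinases, at -0.49 in the authors' deposited table. The receptor tyrosine kinase list of 50 had 4 higher and 7 lower genes in the authors' deposited table. Ret, the receptor of GDNF-family ligands, rose from a derived 7.47 to 20.1 CPM (log2 fold change 1.43 in the authors' deposited table). Its co-receptor Gfra1 fell by 0.59 there. Of the PDGF genes, the receptor Pdgfrb stood at 1.64 and the ligand Pdgfa at 0.76, while the receptor Pdgfra stood at -0.81 and the ligand Pdgfc at -0.56 in the authors' deposited table.

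Genes of the BMP and TGF-beta pathway had 5 higher and 2 lower members of 59 in the authors' deposited table. The ligand Bmp5 stood at 1.97, and Twsg1, an extracellular modulator of BMPs, at 0.45 in the authors' deposited table. All 3 called genes of the 15 in the retinoic acid list were lower by the authors' deposited table. They were the degrading enzymes Cyp26b1 at -0.77 and Cyp26a1 at -1.10 and the receptor Rarb at -0.91. Cyp26b1 fell from a derived 260 to 153 CPM.

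Second messenger genes changed in either direction. In the cyclic nucleotide list 4 of 47 genes were higher and 5 lower by the authors' deposited table. The adenylyl cyclase Adcy7 rose by 1.63 and Adcy8 fell by 1.36, and the calcium-dependent phosphodiesterase Pde1c rose by 1.64 in the authors' deposited table. Gucy1b1, a subunit of the nitric oxide receptor, stood at -1.54 there. Among 76 G protein-coupled receptors, 6 were higher and 4 lower by the authors' deposited table. The adhesion receptor Adgrb1 rose from a derived 18.4 to 40.2 CPM and the large adhesion receptor Adgrv1 from 103 to 187 CPM. The dopamine receptor Drd2 stood at 1.57 in the authors' deposited table.

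Regulators of small GTPases formed a list added after the values had been seen. Of 152 measured members, 14 were higher and 4 lower by the authors' deposited table (11.8% called). Rab11fip4, an effector of recycling endosomes, went from a derived 30.04 to 74.1 CPM (log2 fold change 1.30, adjusted p = 1.38e-35 in the authors' deposited table). The exchange factors Arhgef28 and Fgd3 rose by 1.68 and 1.99, the Rac activator Dock4 by 1.39 and the secretory Rab37 by 3.13 in the authors' deposited table.

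Matrix genes changed in both directions, with rises in Col22a1, Col18a1, Fraser complex genes and Vcan and falls in nidogens, Sparc and Col4a6. Of 46 matrix glycoproteins and proteoglycans, 12 were higher and 5 lower by the authors' deposited table (37.0% called), and the median was 0.012. Has2, which makes hyaluronan, rose from a derived 1.45 to 12.97 CPM (log2 fold change 3.17, adjusted p = 3.67e-36 in the authors' deposited table). Hapln3, which links hyaluronan to proteoglycans, rose from a derived 0.37 to 11.6 CPM. The proteoglycan Vcan, a partner of hyaluronan, stood at 0.75 in the authors' deposited table. Vtn, the cell-adhesive protein vitronectin, rose by 3.82, the calcium-binding Smoc2 by 3.40 and its paralog Smoc1 fell by 0.39 in the authors' deposited table. Thrombospondin genes parted in the authors' deposited table, with Thbs3 at 0.37 and Thbs1 at -0.33. Cell surface syndecans also parted there, with Sdc3 at 0.48 and Sdc4 at -0.34.

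Among 28 measured collagens 5 were higher and 2 lower by the authors' deposited table. Col22a1, a collagen of tissue junctions, rose from a derived 5.97 to 31.4 CPM. Col18a1 rose by 1.24 in the authors' deposited table with an implied SE of 0.11, and Col4a6, a chain of the basement membrane network, fell by 1.003. The fibrillar chains Col3a1 and Col5a2 stood at 1.55 and 0.75 and the cartilage chain Col9a2 at 0.98 in the authors' deposited table, and these 3 calls were lost after rescaling. The list then had 2 higher and 3 lower genes, with the basement membrane chains Col4a1 and Col4a2, at -0.60 and -0.60 in the authors' deposited table, as added lower calls. Summed derived CPM of the collagens was 4465 in control and 3316 in induced cells. In the basement membrane list 3 of 21 genes were higher and 4 lower by the authors' deposited table, and the median was -0.38. The 3 higher genes belong to the Fraser complex, which anchors epithelia to the tissue beneath them. Frem1 rose from a derived 5.36 to 56.2 CPM, Frem2 from 46.7 to 94.5 CPM and Fras1 from 41.5 to 59.98 CPM. The nidogens Nid1 and Nid2, which bridge laminin and type IV collagen, stood at -0.64 and -0.63 and Tinagl1 at -0.80 in the authors' deposited table. After rescaling the list had 3 higher and 7 lower genes, adding the laminin chains Lamb1, Lama1 and Lamc1, and its summed derived CPM was 6214 in control and 4399 in induced cells.

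Some falls in basement membrane genes carried wider errors than other genes of like expression. The implied SE of Nid1, Nid2 and Sparc was 1.74, 1.79 and 1.44 times the median of its bin of about 500 genes. That of Col4a6 was 0.875 times, and the median over the basement membrane list of 21 was 1.25 times. Some genes of visceral endoderm had a like width, with 1.69 times for the endocytic adaptor Dab2, 1.59 times for the endocytic receptor Lrp2, 2.14 times for Gata4 and 1.87 times for Cubn. Over the endoderm marker list the median was 1.42 times. The width was not particular to these genes, with 1.85 times for Ccn1, 1.74 times for Adam19 and 1.61 times for Cldn1, which rose. The endoderm marker list had 3 higher and 4 lower genes of 19 in the authors' deposited table and a median of -0.41. The higher ones were Foxa2 and Foxa1, which also mark the floor plate, and Apob, which rose from a derived 27.3 to 41.5 CPM. The summed derived CPM of the list was 1009 in control and 783 in induced cells, and its scarcest marker averaged -1.40 log2 CPM in the authors' deposited table. The part of endoderm cells in the falls of matrix genes was not tested.

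Enzymes that cut or protect the matrix had 6 higher and 7 lower genes of 67 in the authors' deposited table. Timp3, an inhibitor of metalloproteinases that binds the matrix, rose from a derived 73.4 to 159 CPM (adjusted p = 2.4e-18 in the authors' deposited table). The metalloproteinases Adamts12 and Adamts3 rose by 1.24 and 0.92 there, and Adamts9 fell by 0.83. The lysosomal protease Ctsl fell from a derived 496 to 354 CPM. None of 19 measured integrins, the cell's matrix receptors, was called in the authors' deposited table, in which 5 had an unadjusted p under 0.05. After rescaling 2 integrins were lower.

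Guidance molecules were called more often than any other surface list with at least 15 measured members. Of 19 genes of the Slit, netrin, Robo and Unc5 list, 7 were higher and 4 lower by the authors' deposited table (57.9% called). The Hedgehog and ventral lists hold 4 of the 19, and outside these 3 were higher and 4 lower. Slit1, Slit2, Slit3 and Ntn1, ligands of the ventral midline, made up 4 of the 7 higher genes. Repellent netrin receptors rose, with Unc5c at 1.33 and Unc5a at 1.03 in the authors' deposited table, while the attractive netrin receptor Dcc fell by 0.55 from a derived 69.3 to 47.2 CPM. Robo3, the receptor of commissural axons, stood at -0.79 and Draxin, a repellent of the dorsal spinal cord, at -0.64 in the authors' deposited table. Ntng1, a membrane-anchored netrin, rose from a derived 1.23 to 21.1 CPM.

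Of 20 Eph and ephrin genes 1 was higher and 4 were lower by the authors' deposited table. The receptor Epha8 rose by 3.82 in the authors' deposited table, and Epha7, Epha3 and Epha5 stood at -0.53, -0.74 and -0.75, and the ligand Efnb2 at -0.36. Semaphorin 3E (Sema3e) rose by 0.99 in the authors' deposited table and Plxna2, a receptor of semaphorins, by 0.36, with 0 lower genes of 28.

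Cadherins changed in both directions. Of 25 measured cadherins 6 were higher and 3 lower by the authors' deposited table (36.0% called). Clstn2, a synaptic calsyntenin, rose from a derived 6.35 to 20.5 CPM. The seven-pass cadherins Celsr1 and Celsr2 stood at 0.38 and 0.34 and the giant cadherin Fat4 at 0.35 in the authors' deposited table. The epithelial Cdh1 stood at -0.48, Cdh6 at -0.60 and Cdh7 at -0.89 there. The immunoglobulin adhesion list had 2 higher and 7 lower genes of 41 in the authors' deposited table, among them the axonal Cntn2 at -1.0003, Nfasc at -0.48 and Dscam at -0.76. Among 65 protocadherins, 0 were higher and 3 lower by the authors' deposited table (4.62% called, near the 4.44% over all genes). The 3 were Pcdh10, Pcdh9 at -1.14 and Pcdh7 at -0.63 there. The median of the 65 was 0.14, with 44 above 0 and 21 below 0 in the authors' deposited table.

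Early neuron and cytoskeletal genes were called mostly lower, and genes of vesicle release in both directions. The list of pan-neuronal and early neuron genes had 1 higher and 13 lower of 48 by the authors' deposited table (29.2%). Among them the repressor Scrt2 stood at -1.24, the sensory neuron factor Pou4f1 at -0.93, the splicing factor Rbfox1 at -1.36 and the LIM factor Lhx5 at -1.13 in the authors' deposited table, and the higher gene was the POU factor Pou3f1 at 0.77. Cytoskeletal genes of neurons had 0 higher and 9 lower members of 33 in the authors' deposited table. Among them Mapt, which binds microtubules, stood at -0.53, Stmn2 at -0.39, Ina at -0.45 and Crmp1 at -0.31 in the authors' deposited table. Genes of vesicle release were mixed, with 5 higher and 3 lower of 47 in the authors' deposited table. The synaptotagmin genes Syt4 and Syt13 rose from a derived 6.91 to 25.5 CPM and from 20.5 to 49.4 CPM, and the fusion clamp Cplx2 from 50.7 to 76.7 CPM. Sncg, a member of the synuclein family, fell by 0.86 in the authors' deposited table.

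Transporters and channels were called in both directions. The list of transmitter synthesis and vesicular transport had 3 higher and 1 lower gene of 18 by the authors' deposited table (22.2%). The vesicular monoamine transporter Slc18a2 rose by 1.77 in the authors' deposited table, from a derived 6.13 to 20.97 CPM. Among 48 potassium channels 1 was higher and 3 lower by the authors' deposited table, with the calcium-activated Kcnma1 at 1.94 and the voltage-gated Kcna1 at -1.36. Of 39 sodium and calcium channels, 2 were higher and 1 lower there (7.69% called). The leak channel Nalcn stood at 1.16 and the T-type calcium channels Cacna1h and Cacna1g at 0.87 and -0.39 in the authors' deposited table. Of 46 postsynaptic and transmitter receptor genes, 1 was called in the authors' deposited table, the nicotinic receptor subunit Chrna5 at -0.82.

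**Figure D4:**
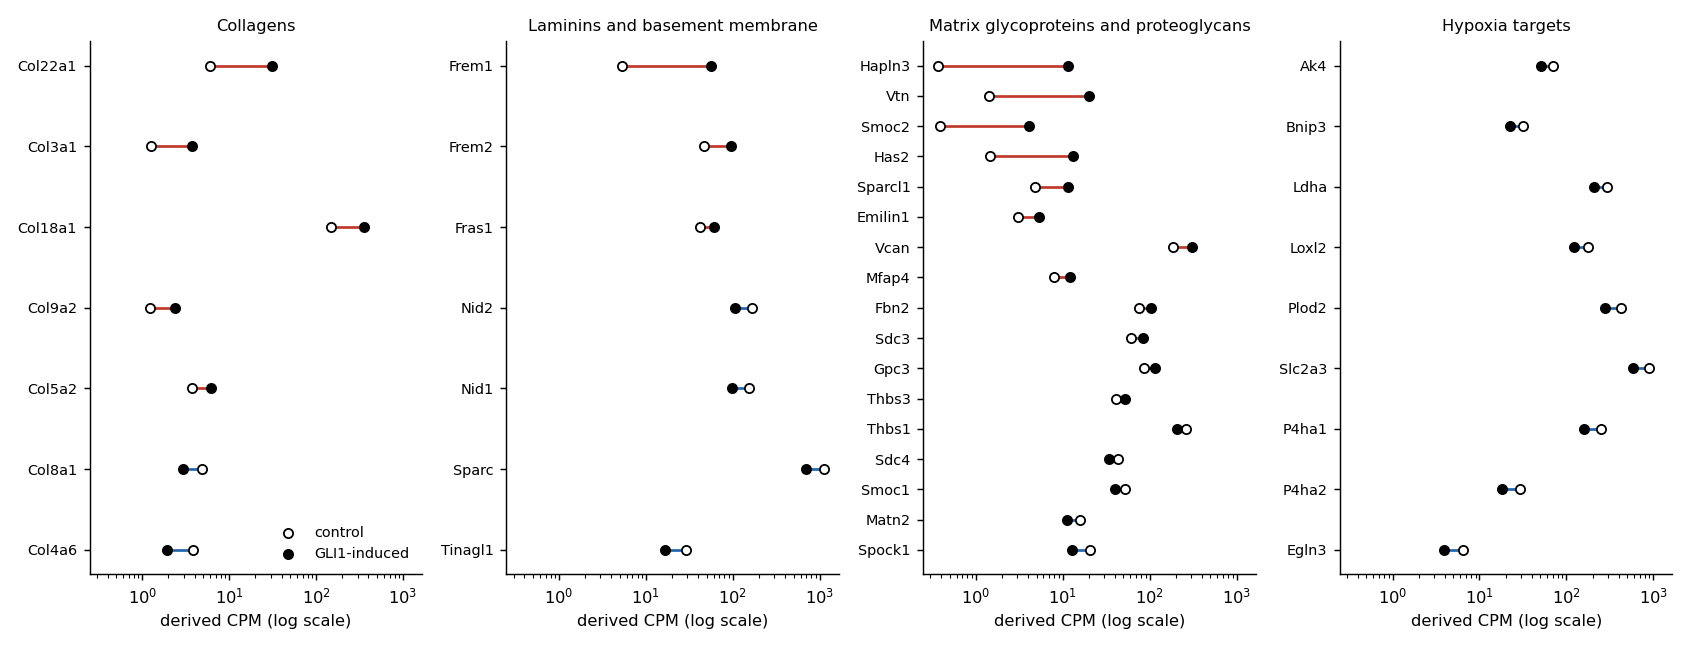
Derived group levels in CPM, on a log axis, of the called genes in the 3 matrix lists and the list of hypoxia targets. Open circles are control cells and filled circles induced cells, joined in red where the gene was higher and in blue where it was lower. Matrix genes lie on both sides, with Frem1 going from 5.36 to 56.2 CPM, while all 9 called hypoxia targets were lower.

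Some genes known as targets of the hypoxia-inducible factor (HIF) were lower. HIF is stabilised when oxygen is scarce and raises genes of glucose uptake, glycolysis, collagen hydroxylation and mitochondrial turnover. Of 28 measured targets, 0 were higher and 9 lower by the authors' deposited table (32.1% called, against 2.10% lower over all genes). The median of the 28 was -0.28 and 22 of them were below 0 in the authors' deposited table. The prolyl hydroxylases of collagen P4ha1 and P4ha2 fell from a derived 250 to 158 CPM and from 29.5 to 18.1 CPM. Plod2 fell from a derived 425 to 280 CPM, and the lysyl oxidase Loxl2 from 176 to 123 CPM. The lactate dehydrogenase Ldha fell by 0.48 in the authors' deposited table, from a derived 292 to 209 CPM, and the mitochondrial adenylate kinase Ak4 by 0.47, from 70.1 to 50.5 CPM (adjusted p = 7.13e-05 in the authors' deposited table). The mitophagy receptor Bnip3 stood at -0.48 and Egln3, the prolyl hydroxylase that marks HIF for destruction, at -0.71 in the authors' deposited table. None of the 9 fell by 2-fold.

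Other targets of HIF did not pass. An unadjusted p under 0.05 was found for 2 targets above 0 and for 15 below 0, the 9 called ones among them, in the authors' deposited table. After rescaling 1 target was higher, Hk2, and 9 were lower, with Pgk1 in place of Egln3. Vegfa stood at 0.28, Hk2 at 0.28, Pgk1 at -0.25, Slc2a1 at -0.087 and Pdk1 at -0.048 in the authors' deposited table. The list shares members with others. Of the 9 lower genes, 4 are collagen-modifying enzymes and 2 belong to the glycolysis list. The glycolysis list itself had 0 higher and 3 lower genes of 24 in the authors' deposited table, with Slc16a1, a lactate carrier, as the third at -0.46. The implied SE was above the median of its bin in 7 of the 9 lower genes, up to 1.57 times for P4ha1 and 1.44 times for P4ha2. Oxygen and cell density are not given in the labels, and the part of endoderm genes in these falls was not tested.

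The 5-letter core of the HIF binding element was looked for in promoters. Promoter windows were read from a RefSeq table for GRCm38.p6 that reaches from 250 bases before to 50 bases after a gene's start, and 10931 tested genes had 1. The letters ACGTG and CACGT, the same core on either strand, were found in 6 of the 6 lower hypoxia genes with a window and in 17 of the 23 hypoxia targets with a window (73.9%). They were found in 28.8% of all tested genes with a window, and in 28.8% of all lower genes with a window, so the core is frequent and a match is not a site of binding. The list was chosen as known targets of HIF, so a high share could be foreseen and is not a result of D5. For the 6 of 6, the Wilson 95% range of 61.0% to 100% holds the 73.9% of the whole list. The 6 genes also had more start windows per gene, 1.67 against 1.28 over all tested genes, and a median GC content of 70.3% against 62.3%, and the part of these in the matches was not tested. The upstream parts of 4 of the lower genes are printed to show where the core lies, with it in capitals, RefSeq sequence, GRCm38.p6. They are P4ha1 at chr10:59323046-59323295 (plus strand), Ldha at chr7:46845554-46845803 (plus strand), Bnip3 at chr7:138909507-138909756 (minus strand) and Egln3 at chr12:54203875-54204124 (minus strand), each 5′ to 3′ on the gene's strand.
P4ha1: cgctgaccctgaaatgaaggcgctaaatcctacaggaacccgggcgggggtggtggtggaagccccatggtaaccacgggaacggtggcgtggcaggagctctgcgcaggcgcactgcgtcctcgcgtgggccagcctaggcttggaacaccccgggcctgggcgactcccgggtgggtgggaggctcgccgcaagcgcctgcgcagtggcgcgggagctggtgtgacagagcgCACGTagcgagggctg
Ldha: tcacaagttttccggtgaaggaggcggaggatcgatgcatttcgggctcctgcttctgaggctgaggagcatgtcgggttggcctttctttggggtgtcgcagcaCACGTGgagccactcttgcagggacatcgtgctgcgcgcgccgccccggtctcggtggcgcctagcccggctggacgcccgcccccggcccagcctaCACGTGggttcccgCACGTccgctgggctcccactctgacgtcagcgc
Bnip3: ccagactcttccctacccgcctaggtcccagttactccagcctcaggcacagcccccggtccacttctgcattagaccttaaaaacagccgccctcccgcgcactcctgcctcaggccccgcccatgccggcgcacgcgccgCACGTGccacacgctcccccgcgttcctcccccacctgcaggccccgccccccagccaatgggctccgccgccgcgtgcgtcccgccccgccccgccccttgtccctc
Egln3: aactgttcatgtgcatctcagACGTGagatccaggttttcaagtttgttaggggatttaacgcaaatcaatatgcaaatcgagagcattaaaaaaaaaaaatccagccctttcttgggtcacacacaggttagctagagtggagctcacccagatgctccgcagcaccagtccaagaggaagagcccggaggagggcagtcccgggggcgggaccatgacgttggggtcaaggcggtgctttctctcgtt
In Ldha the core lies in 3 stretches, of which 2 read CACGTG, where the cores of both strands overlap. In P4ha1 it begins 16 bases before the start and in Egln3 229 bases before it.

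Basic cell machinery gave few or no calls. By the authors' deposited table, 0 genes were called among 86 cytosolic ribosomal proteins, 79 nuclear genes of oxidative phosphorylation, 78 mitochondrial ribosomal proteins, 46 proteasome subunits, 83 chaperones, 69 histones and 37 tRNA synthetases. An unadjusted p under 0.05 was found for 1 ribosomal protein, 1 gene of oxidative phosphorylation and 2 chaperones in the authors' deposited table, and for 0 genes of the other 4 of these lists. After rescaling 2 chaperones were lower, and the other 6 lists still had 0 calls. The 15 genes of the mitochondrial genome had 0 calls and 3 with an unadjusted p under 0.05 in the authors' deposited table, and 7 were higher after rescaling. Among 84 cilium genes, where Hedgehog signals are received, 0 were called in the authors' deposited table and 2 had an unadjusted p under 0.05. The exceptions in this class included Eef2k, the kinase that slows translation elongation, which rose by 1.10 in the authors' deposited table (adjusted p = 1.06e-15). Among chromatin regulators, Chd3 rose by 1.10 with an implied SE of 0.11, Ezh1, a Polycomb methyltransferase, stood at 0.48 and the DNA methyltransferase Dnmt3b at -0.44 in the authors' deposited table.

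The cell cycle lists were nearly flat. Of 44 genes of DNA replication and 41 of mitosis, 0 were called in the authors' deposited table, where 0 and 1 had an unadjusted p under 0.05. In the list of G1 cyclins, Myc genes and Cdk inhibitors the call was Ccnd1 at 0.67 in the authors' deposited table, with 25 genes that did not pass. Targets of p53 and interferon response genes also had 0 calls in the authors' deposited table, among 28 and 15 genes, with 1 and 3 at an unadjusted p under 0.05. After rescaling 1 p53 target was higher and 2 interferon response genes were lower.

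Imprinted genes, which are expressed from 1 parental copy, had 7 higher and 1 lower member of 42 in the authors' deposited table. Besides Plagl1, the actin nucleator Cobl rose from a derived 4.42 to 22.7 CPM (log2 fold change 2.36, adjusted p = 6.91e-41 in the authors' deposited table). The others were Magel2 at 0.71, Snrpn at 0.32, Snurf at 0.32, Asb4 at 1.26 and Dio3, which inactivates thyroid hormone, at 1.14 in the authors' deposited table. Snrpn and Snurf lie on 1 transcript and share reads, so they are not separate observations. Mest was the lower gene, at -0.47 in the authors' deposited table.

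Many called genes stood in no functional list, 348 in all, and their roles vary. Thsd4, a matrix protein of microfibrils, rose from a derived 14.1 to 50.7 CPM (log2 fold change 1.85, adjusted p = 5.98e-50 in the authors' deposited table). Tmtc1, which adds mannose to cadherins, rose by 2.79 there, from a derived 2.61 to 18.0 CPM. Nptx2, a pentraxin that gathers glutamate receptors, rose by 2.31, the phosphatase Ptp4a3 by 1.87 and Fxyd6, a modulator of the sodium pump, by 1.15 in the authors' deposited table. On the lower side, Fam84b fell from a derived 59.9 to 33.2 CPM (adjusted p = 2.17e-17 in the authors' deposited table). F3, the tissue factor that starts coagulation, stood at -0.82 and its inhibitor Tfpi at -0.65 in the authors' deposited table. Cemip, which breaks down hyaluronan, stood at -1.01 there, opposite to the synthase Has2. Thsd4, Nptx2, Fxyd6 and Cemip were chosen after their values were seen.

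Receptors of lipoproteins and endocytosis, a list added after values were seen, had 4 higher and 5 lower genes of 24 in the authors' deposited table. The reelin receptor Vldlr stood at 0.86, the sortilin relative Sorcs2 at 1.35 and the chaperone-like Clu at 0.85 in the authors' deposited table. Lrp2 stood at -0.53, its chaperone Lrpap1 at -0.48, the adaptor Dab2 at -0.57 and the lipoprotein Apoe at -0.42 in the authors' deposited table.

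The share called differed little between protein-coding genes and all genes, and most tested genes are protein-coding. In the authors' deposited table, 337 higher and 302 lower genes were found among 13165 protein-coding genes (4.85% called), and 7 higher and 6 lower among 481 long noncoding RNAs (2.70%). The median average log2 CPM was 4.66 for protein-coding genes and 1.68 for long noncoding RNAs, so the kinds were not measured with like precision. The 27 microRNA and 48 snoRNA genes had 0 calls in the authors' deposited table, and polyadenylated libraries capture their mature forms poorly.

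Called genes lay beside each other on the chromosome more often than the background share. Neighbours were taken as the nearest tested gene on either side in the RefSeq gene order, which placed 14291 genes. Of 685 neighbour places of higher genes 66 held a higher gene, or 9.64%, where 2.41% of all placed genes were higher. Of 622 neighbour places of lower genes 32 held a lower gene, or 5.14%, where 2.18% of placed genes were lower. Neighbours called in the opposite direction made up 2.48% and 2.73% of these places. Pairs share members, so the places are not independent, and no test was made.

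The 66 pairs of called neighbours comprised 33 with both genes higher, 16 with both lower and 17 with opposite directions. Of the 49 pairs with 1 direction, 8 overlap in RefSeq and could share reads, since it is not given whether counting used the strand. Leaving overlapping neighbours out, a choice made after seeing the data, gave 8.44% for higher and 4.75% for lower genes. Nalcn and Fgf14 stood at 1.16 and 2.93, and Card19 and Fgd3 at 1.61 and 1.99 in the authors' deposited table. Tmprss5 and Drd2 stood at 1.63 and 1.57, and Scara3 and Clu at 1.55 and 0.85 in the authors' deposited table. Lower pairs included the matricellular Ccn2 and Enpp1 at -0.63 and -0.85, and Ccn1 and Ddah1 at -0.62 and -0.59 in the authors' deposited table. Opposite pairs included Vav3 and Ntng1 at -0.60 and 4.10, and Edil3 and Vcan at -0.72 and 0.75 there.

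The letters of the GLI binding consensus were too rare near gene starts for a comparison. GACCACCCA and TGGGTGGTC, the same 9 letters on either strand, were found in 0 of 255 higher genes and 0 of 222 lower genes with a window, and in 27 of 10931 tested genes (0.247%). The 0 of 255 allows a share of up to 1.48% (upper Wilson 95% bound, counting error only). The 7-letter core ACCACCC and GGGTGGT, which lies within the longer consensus, was found in 11 of 255 higher genes (4.31%), 17 of 222 lower genes (7.66%) and 5.81% of all tested genes with a window. These windows cover the bases next to the start and say nothing of enhancers. The upstream parts of 3 higher genes with the core are printed as examples, with the core in capitals, RefSeq sequence, GRCm38.p6, each 5′ to 3′ on the gene's strand. They are Fgf14 at chr14:124192547-124192796 (minus strand), Pde1c at chr6:56362811-56363060 (minus strand) and Unc5a at chr13:54949161-54949410 (plus strand).
Fgf14: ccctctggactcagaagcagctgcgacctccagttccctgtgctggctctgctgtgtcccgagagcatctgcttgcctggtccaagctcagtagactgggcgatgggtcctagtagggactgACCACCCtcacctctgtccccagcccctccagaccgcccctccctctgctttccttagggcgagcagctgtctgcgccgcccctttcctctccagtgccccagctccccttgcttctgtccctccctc
Pde1c: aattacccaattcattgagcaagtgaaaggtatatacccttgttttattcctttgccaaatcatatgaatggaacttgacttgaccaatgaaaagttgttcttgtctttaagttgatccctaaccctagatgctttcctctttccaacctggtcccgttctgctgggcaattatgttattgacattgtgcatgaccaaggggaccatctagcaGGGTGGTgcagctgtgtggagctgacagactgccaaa
Unc5a: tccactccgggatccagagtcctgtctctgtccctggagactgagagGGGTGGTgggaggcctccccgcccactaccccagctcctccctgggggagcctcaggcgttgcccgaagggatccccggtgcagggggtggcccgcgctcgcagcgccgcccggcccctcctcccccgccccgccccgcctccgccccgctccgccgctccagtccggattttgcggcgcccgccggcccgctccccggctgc
The core begins 128 bases before the start in Fgf14, 37 bases before it in Pde1c and 203 bases before it in Unc5a.

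The genes of the D5 response differed little on day 10 (D10), 5 days after the end of the doxycycline treatment, in 3 induced and 3 control libraries that are separate from those of D5. Of 335 higher genes that were also measured at D10, 228 kept their sign (68.1%) in the authors' deposited tables, and the median was a log2 fold change of 0.068. Of 307 lower genes 227 kept theirs (73.9%), with a median of -0.078. Genes not called at D5 had the same sign on both days in 58.1% of 14150 cases. At D10 13 of 15744 genes were called (0.0826%) in the authors' deposited table, among them 6 of the higher and 0 of the lower genes of D5. Sign was kept in 78.1% of the 247 genes that fell by under 2-fold and in 56.7% of the 60 that fell by more. All 9 lower hypoxia targets were also below 0 at D10, with a median of -0.19 by the authors' deposited table, and 0 of them passed. The 16 called matrix glycoprotein genes measured on both days had a median of 0.0036 at D10, with 12 of the same sign as at D5.

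**Figure D5:**
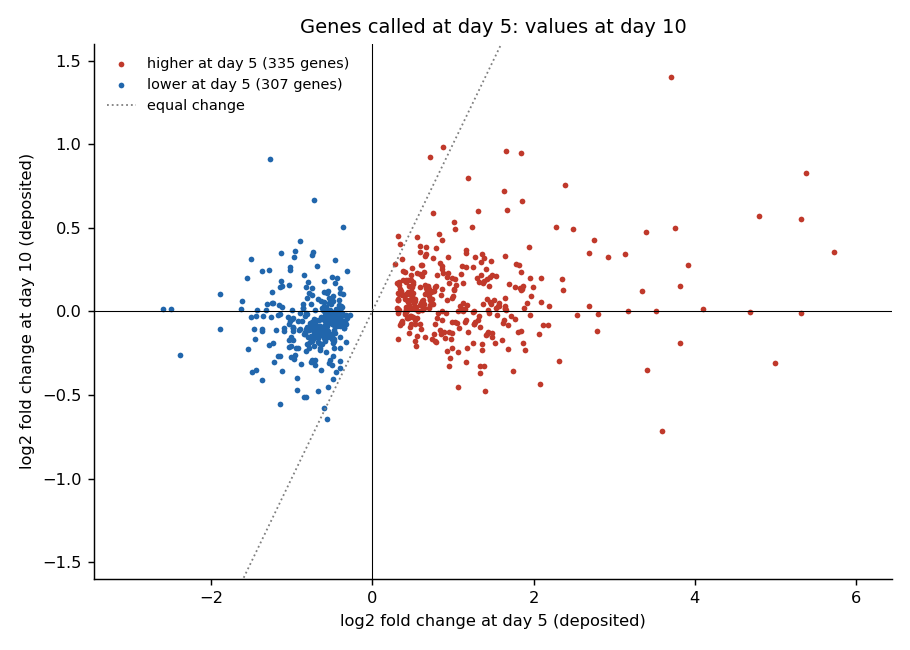
Each point is a gene called at D5 and measured on both days, with its log2 fold change at D5 on the x axis and at D10 on the y axis, both from the authors' deposited tables. The dotted line marks equal change. Points lie close to 0 on the y axis, with medians of 0.068 for the 335 higher and -0.078 for the 307 lower genes.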

How the data were processed

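Polyadenylated RNA of the D5 cultures was sequenced as stranded single-end reads from TruSeq libraries, per the labels' protocols. The aligner, genome build, counter and test, and whether reads were counted by strand, were not given in the sources used here. Genes that overlap, on either strand, may therefore share reads. The authors' deposited table holds, per Entrez gene, a log2 fold change of induced over control and an average log2 CPM. The authors also deposited a p-value of their test and an FDR per gene, per the file headers, and this FDR equals the Benjamini-Hochberg adjusted p to within 2.7181e-06. Base 2 for the fold change was taken from the layout of the file, which names no base. The average log2 CPM values sum to 1001543 CPM. Values per library were not analysed here, so no count test was run and no library could be left out.

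Symbols were found for 14300 of 15108 genes (94.7%), 659 from the authors' selected-gene table, 13636 from RefSeq and 5 from GENCODE. Group levels were derived from the average and the fold change, assuming that the average is the mean of the group levels. Implied standard errors were derived from the fold change and p. The 84 functional and marker lists, 2 reference lists and the members were chosen with earlier results of these data known, and 3 more lists were added after seeing the values. The rule for named genes took Gli1, called genes with the smallest p in each direction, those with the largest change or the highest average per expression class or direction, up to 6 called members per list and direction, and called neighbours, 376 genes in all. Outside that rule, Arhgef28, Cemip, Crmp1, Egln3, Fxyd6, Ina, Loxl2, Lrp2, Lrpap1, Mapt, Nptx2, Pdgfc, Porcn, Rbfox1, Rab11fip4, Rab37, Sdc3, Sorcs2, Thbs3, Thsd4 and Wnt7b were named after their values were seen. Genes that were not called are named as markers or as list members. Alternatives were a stricter and a looser adjusted p, a 2-fold minimum, Holm adjustment, a minimum expression, rescaled z and other neighbour and motif rules. The calculations were tested on simulated data and used Python 3.11.15, pandas 2.3.3, numpy 2.4.6, scipy 1.17.1, statsmodels 0.14.6 and matplotlib 3.10.9. Some genes are not reported here.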

Additional observations from a re-analysis of the deposited data

How the results depend on the processing

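The count of called genes, 671 in the authors' deposited table, was 433 at an adjusted p under 0.01, 250 with a 2-fold minimum and 242 with Holm adjustment. The 354 higher genes became 182 with a 2-fold minimum and 180 with Holm adjustment, and the 317 lower genes 165 at 0.01, 68 with a 2-fold minimum and 62 with Holm adjustment. The share called under an average log2 CPM of 4 was 1.72 times that above it, and became 6.86 times with a 2-fold minimum and 0.908 times after rescaling z. Surface and matrix calls went from 92 to 28 with a 2-fold minimum, and the 8 core machinery calls to 5 at 0.01 and 3 with a 2-fold minimum. Like-called neighbours of higher genes, at 9.64% as reported, came to 6.55% at 0.01 and 5.70% with a 2-fold minimum. Those of lower genes, at 5.14%, came to 3.03% with a 2-fold minimum. With that minimum the share over all tested genes fell too, from 2.34% to 1.20% for higher genes and from 2.10% to 0.450% for lower genes. The neighbour shares are to be read against these. Among lower genes, 73.9% had the same sign at D10, and 56.7% did with a 2-fold minimum. The GLI consensus, in 0% of higher and lower promoters, gave 4.31% and 7.66% with its 7-base core. Each of these stricter rules keeps fewer genes by construction, and the cause of the other moves was not tested. Of the 376 named genes, 267 kept their call at 0.01, 163 with Holm adjustment and 342 after rescaling. The depth per library is unknown. No paired analysis was possible because the deposited tables hold no values per library, and leaving out a replicate was not run for the same reason.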

Other observations

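Among chemokine genes both calls fell on 1 ligand and its receptor. Of 43 chemokine, cytokine and receptor genes, 2 were higher and 0 lower by the authors' deposited table (4.65% called, near the 4.44% over all genes), and 9 had an unadjusted p under 0.05, 3 above and 6 below 0. Cxcl12, a chemokine that guides migrating cells, rose from a derived 4.72 to 30.6 CPM (log2 fold change 2.69 in the authors' deposited table). Ackr3, its scavenger receptor, rose by 0.48 there, while its signalling receptor Cxcr4 stood at -0.19 and did not pass. Steroid and retinoid enzymes held Hsd11b2, which inactivates glucocorticoids and rose from a derived 2.30 to 34.7 CPM.

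Solute carriers had 8 higher and 6 lower genes of 242 in the authors' deposited table (5.79% called, near the 4.44% over all genes). The median of the list was -0.029 there. Slc1a3, the glutamate carrier of radial glia, rose from a derived 10.6 to 22.9 CPM and Slc8a3, a sodium-calcium exchanger, from 2.96 to 8.57 CPM. The iron exporter Slc40a1 stood at -0.72 and the zinc and iron importer Slc39a8 at -0.51 in the authors' deposited table.

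The epithelial list had 0 higher and 4 lower genes of 20, with 16 that did not pass, and a median of -0.40 in the authors' deposited table. Besides Cdh1 these were the adhesion molecule Epcam at -0.58, the protease inhibitor Spint2 at -0.59 and the splicing regulator Esrp1 at -0.71 in the authors' deposited table. Markers of other cell types moved beside them. Surface ectoderm and placode markers, which share Cdh1, Epcam and Esrp1, had 0 higher and 3 lower of 15 (median -0.35) by the authors' deposited table, and pluripotency and epiblast markers 0 and 5 of 29 (median -0.45). The endoderm median was -0.41, and the part of these cell types in the epithelial falls was not tested. Of 15 markers of endothelium and blood 2 were higher and 3 lower by the authors' deposited table, and Ramp2, a receptor partner of adrenomedullin signalling, rose from a derived 1.51 to 5.14 CPM while Flt1, a VEGF receptor, fell from 30.4 to 16.0 CPM.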
